A study of Mus musculus with 4 samples.

Results

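The replication-dependent histone genes were taken from a bulk RNA-seq table of mouse T helper 2 (Th2) cells by their names: every gene whose ID starts with Hist1h, Hist2h, Hist3h or Hist4. The rule found 60 of the 26207 genes in the table: 5 for the linker histone H1, 15 for H2A, 17 for H2B, 10 for H3 and 13 for H4. The mouse annotation GENCODE M21 holds 70 genes with such names, and the other 10, which include Hist1h1t and Hist1h2ba, were not analysed here. The samples were 2 libraries of Th2 cells given 10 µM dopamine and 2 libraries of Th2 cells given phosphate-buffered saline (PBS), with spleen as the stated source of all of them. Th2 cells are CD4 helper T cells that make type 2 cytokines, and dopamine is a catecholamine that sympathetic nerves can make. The labels give no strain, age or exposure time. No label states that the 2 libraries of a group were separate animals or cultures. The p-values therefore reflect the spread from library to library, technical or not. In the main test that spread is largely borrowed from other genes and is not the gene's own alone. The libraries of a group are called A and B, which are names only.

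Replication-dependent histone genes make the core and linker histones that package newly copied DNA, and their messages are known to be made mainly in S phase. They lie in clusters with many near-identical copies and have mostly no introns. Most of their messages end not in a poly(A) tail but just after a short stem-loop that the stem-loop binding protein SLBP holds, and the cut is made with the U7 small nuclear ribonucleoprotein. The libraries were made with a kit that selects poly(A) RNA, per the labels' protocols, so the counts report whatever part of these messages that step kept.

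The stem-loop is printed here because it is the feature that sets these messages apart, and because the gene classes carry different forms of it. A search of the GENCODE M21 transcripts found the 16-base element in 39 of the 60 genes. The annotated transcripts of the other 21 held none, but some of these are short, such as that of Hist1h4k (312 bases). A stem-loop past an annotated end would not be found. The 6 forms found are written 5′ to 3′ as DNA, with both arms of the stem in capitals and the loop in lower case, each named by a gene that carries it.
Hist1h1c: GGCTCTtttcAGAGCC
Hist1h2bb: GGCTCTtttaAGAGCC
Hist2h2ac: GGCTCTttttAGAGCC
Hist1h4c: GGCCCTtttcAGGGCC
Hist1h4i: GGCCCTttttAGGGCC
Hist1h4b: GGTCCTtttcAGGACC
The form of Hist1h1c was shared by 22 genes of H1, H2A, H2B and H3, and that of Hist1h2bb by 5 genes of H2B and H3. The form of Hist2h2ac stood in that gene alone. The other forms were found in H4 genes: that of Hist1h4c in 7, that of Hist1h4i in 2 and that of Hist1h4b in 2.

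Histone messages were more abundant in the dopamine libraries in every class. Of the 60 genes, 44 were called higher after dopamine and 1, Hist2h2be, was called lower, by limma with Benjamini-Hochberg adjustment over 26207 genes at 0.05, against 14.3% of all genes called higher and 7.0% called lower. The log2 fold change was positive for 57 of the 60, with a median of 0.58 on the log2(normalised count + 1) scale, where the median of all genes was -0.08. Of the 60 genes, 54 had both dopamine libraries above both PBS libraries and 2 had both below, against 28.5% and 30.4% of all genes. At an unadjusted p under 0.05, 49 of the 60 were higher and 1 lower, against 18.9% and 13.5% of all genes. Without limma's trend of spread on level, 0 genes of the whole table passed the adjusted threshold, and at an unadjusted p under 0.05 36 of the 60 were higher, against 8.61% of all genes. In these bulk samples, fewer cells of a type and less RNA per cell cannot be told apart.

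Because most histone genes here were well expressed, genes of like level are the closer background. Among the 8492 genes with a mean of at least 100 normalised counts, 39.1% were called higher and 7.9% lower, and the median log2 fold change was 0.20. Of the 42 histone genes at that level, 37 were called higher and 0 lower, with a median of 0.54. Of the 42, 40 had both dopamine libraries above both PBS libraries and 0 had both below, against 60.8% and 15.4% of the 8492. After the libraries were rescaled so that the median change of the 8492 genes was 0, 18.4% of them were called higher and 19.0% lower. In that scaling 29 of the 42 histone genes were called higher and 0 lower, with a median of 0.34. Over all 60 genes the rescaled fit called 35 higher, all of them among the 44, and 1 lower, against 6.8% and 12.2% of all genes. edgeR on the recovered reads called 39 higher and 1 lower, against 18.2% and 15.8% of the genes it tested, and DESeq2 called 36 higher and 0 lower, against 19.6% and 5.53%. The authors' deposited table likewise called 36 of the 60 higher and 0 lower, with 22 not called and 2 without an adjusted p.

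**Figure D1:**
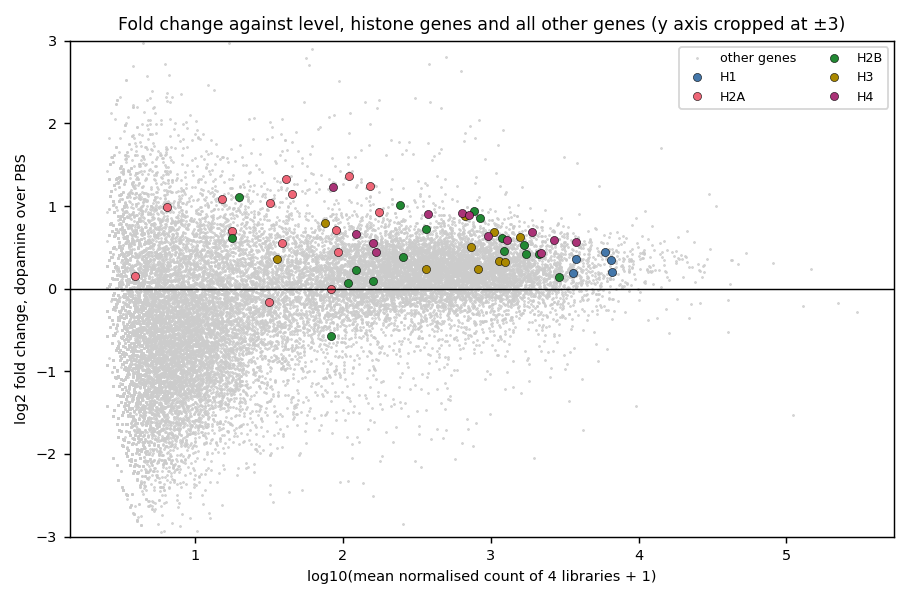
The log2 fold change of dopamine over PBS (y axis) is plotted against the log10 mean normalised count of the 4 libraries plus 1 (x axis) for the 60 histone genes, coloured by class, and all other genes in grey. All but 3 histone genes lie above the line at 0, with a median of 0.58, and the grey cloud at a mean of at least 100 counts has a median of 0.20.

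Summed over all 60 genes, the histone messages came to 71922 and 75225 normalised counts in the dopamine libraries, against 53889.6 and 54496 in the PBS libraries. Both dopamine libraries stood above both PBS libraries, and libraries of a group lay close together. The mean of the dopamine libraries was 1.36 times that of the PBS libraries, and the 4 pairs of libraries gave 1.32 to 1.40. As a share of all reads assigned to genes, the sum was 0.658% and 0.674% in the dopamine libraries, against 0.555% and 0.537% in the PBS libraries. With 2 libraries a group an exact two-sided permutation test cannot go below 0.333, so the sums are given without a test. The ratio of dopamine to PBS was 1.24 for H1, 1.80 for H2A, 1.37 for H2B, 1.41 for H3 and 1.53 for H4. All genes together summed to 10929260 and 11158720 normalised counts in the dopamine libraries, against 9712175 and 10144911 in the PBS libraries. Part of each class ratio is thus shared with the whole table.

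**Figure D2:**
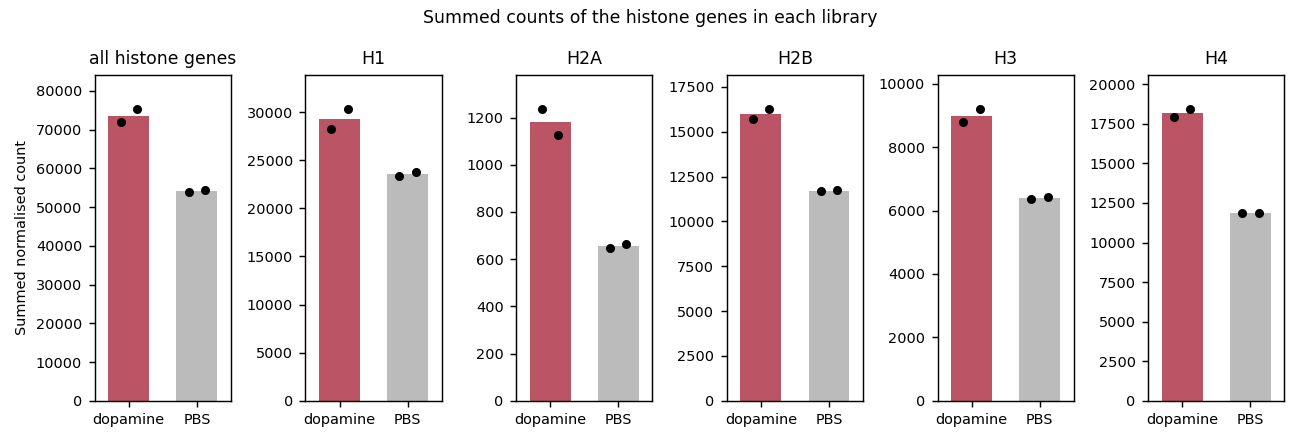
Summed normalised counts of all histone genes and of each class are shown, with the bar at the mean of the 2 libraries of a group and a point for each library. Both dopamine points stand above both PBS points in each panel, with a ratio of means between 1.24 (H1) and 1.80 (H2A).

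The linker histone H1, which binds the DNA between nucleosomes, had the highest median level per kilobase of exon of the 5 classes and the smallest median fold change. All 5 genes were called higher, with log2 fold changes of 0.18 to 0.44. Hist1h1e (chr13:23620629-23622558, minus strand, mouse build mm10 as for all coordinates here) had 6652 and 7094 normalised counts in the dopamine libraries, against 5076 and 5031 in the PBS libraries. Hist1h1d had 7092 and 7434 normalised counts in the dopamine libraries, against 5618 and 5792 in the PBS libraries. In both genes the lowest dopamine library was well above the highest PBS library. The change was log2 fold change 0.44, SE 0.06, adjusted p = 1.11e-07 for Hist1h1e and log2 fold change 0.35, SE 0.06, adjusted p = 9.35e-06 for Hist1h1d. Hist1h1b (chr13:21779883-21780625, minus strand) had 4024 and 4400.5 normalised counts in the dopamine libraries, against 3226 and 3329 in the PBS libraries, again with no overlap (log2 fold change 0.36, SE 0.07, adjusted p = 2.89e-05). It shares 0% of its 50-base stretches with transcripts of other genes, so no read of that length from it matches another annotated transcript. Hist1h1c had 6716 and 7428 normalised counts in the dopamine libraries, against 6003 and 6335 in the PBS libraries (log2 fold change 0.20, SE 0.06, adjusted p = 0.0151). Hist1h1a had 3727 and 3906 normalised counts in the dopamine libraries, against 3397 and 3319 in the PBS libraries (log2 fold change 0.18, SE 0.06, adjusted p = 0.0337). These are the weakest calls among the H1 genes, and after the rescaling both log2 fold changes were at or just below 0, at -0.0023 for Hist1h1c and -0.014 for Hist1h1a. Both calls were also lost with edgeR on the recovered reads. The ratio of Hist1h1e to Hist1h1a, which no library scaling can move, was 1.78 and 1.82 in the dopamine libraries, against 1.49 and 1.52 in the PBS libraries. Exons of Hist1h1e and Hist1h2be overlap by 496 bases on the same strand, so reads there belong to neither with certainty.

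H2A genes, whose product pairs with H2B on the flanks of the nucleosome core, had the lowest median level per kilobase of exon and the largest median fold change. Of the 15, 7 were called higher and 0 lower, and the median log2 fold change was 0.93. Hist1h2ab (chr13:23751126-23751598, plus strand) had 242 and 217 normalised counts in the dopamine libraries, against 121 and 119 in the PBS libraries. Hist1h2ak (chr13:21753435-21753827, minus strand) had 221 and 203 normalised counts in the dopamine libraries, against 78.1 and 101 in the PBS libraries. Hist2h2ac, in the Hist2 cluster (chr3:96220361-96220880, minus strand), had 175 and 139.8 normalised counts in the dopamine libraries, against 69.6 and 52.1 in the PBS libraries. These 3 genes had the highest mean counts of the class, and their dopamine libraries were all clear of their PBS libraries. The fit gave log2 fold change 0.93, SE 0.14, adjusted p = 1.50e-06 for Hist1h2ab, log2 fold change 1.24, SE 0.16, adjusted p = 2.52e-08 for Hist1h2ak and log2 fold change 1.36, SE 0.18, adjusted p = 8.31e-08 for Hist2h2ac. Hist1h2ai had 56.3 and 58.3 normalised counts in the dopamine libraries, against 23.8 and 20.7 in the PBS libraries (log2 fold change 1.33, SE 0.27, adjusted p = 1.34e-04). Hist1h2ah had 51.7 and 70.9 normalised counts in the dopamine libraries, against 25.5 and 28.3 in the PBS libraries (log2 fold change 1.14, SE 0.26, adjusted p = 6.22e-04). Hist1h2ae and Hist1h2ac were also called, at log2 fold changes of 0.71 and 1.04.

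Of the H2A genes that did not pass, Hist1h2al, Hist1h2ad, Hist1h2an, Hist1h2ag and Hist1h2af had positive log2 fold changes of 0.44 to 1.09, and Hist1h2ao had 0.15. Hist1h2ad rested on 1 to 10 reads a library and Hist1h2ao on 1 to 5. Hist2h2ab, at 74.1 and 88.4 normalised counts in the dopamine libraries, against 81.5 and 81.2 in the PBS libraries, had a log2 fold change of -0.01 (95% interval -0.39 to 0.37), and its groups overlapped. Hist3h2a, at 30.1 and 27.2 normalised counts in the dopamine libraries, against 30.6 and 33.7 in the PBS libraries, had -0.16 (95% interval -0.74 to 0.41). The exons of all 15 H2A genes overlap an annotated gene on the opposite strand, against 0 of the H1, H2B and H3 genes and 1 of 13 H4 genes. Whether reads were counted by strand is unstated, and the part of this overlap in the H2A counts was not tested. Hist1h2al is annotated as a processed pseudogene.

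H2B genes held the set's only call in the other direction. Of the 17, 11 were called higher and 1 lower. The 3 with the highest mean counts were Hist1h2bb, Hist1h2be and Hist1h2bn. Hist1h2be had 2405 and 2459 normalised counts in the dopamine libraries, against 1824 and 1812 in the PBS libraries (log2 fold change 0.42, SE 0.07, adjusted p = 9.00e-06). Hist1h2bn had 1963 and 1992 normalised counts in the dopamine libraries, against 1485 and 1478 in the PBS libraries (log2 fold change 0.42, SE 0.07, adjusted p = 2.02e-05). Hist1h2bb (chr13:23746734-23747241, plus strand) had 3071 and 3032 normalised counts in the dopamine libraries, against 2679 and 2873 in the PBS libraries. Its groups did not overlap, but the difference was small and did not pass (log2 fold change 0.14, SE 0.07, adjusted p = 0.146, 95% interval 0.00 to 0.27). After rescaling its log2 fold change was -0.06.

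Larger H2B changes were seen in genes with lower counts. Hist1h2bc had 984 and 1035 normalised counts in the dopamine libraries, against 481 and 580.0 in the PBS libraries (log2 fold change 0.93, SE 0.09, adjusted p = 1.00e-10). Hist1h2bj had 1022 and 1155 normalised counts in the dopamine libraries, against 598 and 605 in the PBS libraries (log2 fold change 0.85, SE 0.09, adjusted p = 2.57e-10). Hist1h2bk (chr13:22035870-22036345, plus strand) had 306 and 342 normalised counts in the dopamine libraries, against 169.9 and 150.2 in the PBS libraries (log2 fold change 1.01, SE 0.13, adjusted p = 3.14e-08). In all 3 both dopamine libraries were well clear of both PBS libraries. Hist1h2bl, Hist1h2bh, Hist1h2bg and Hist1h2bm were called higher at 0.46 to 0.72, Hist1h2bf at 0.39 and Hist1h2bq at 1.11. The call of Hist1h2bq rests on 4 to 35 reads a library and failed in 11 of the 14 other analyses that gave it a value, and that of Hist1h2bf failed in 7 of 15. Not passing were Hist1h2br at 0.61, Hist3h2bb-ps at 0.22, Hist1h2bp at 0.10 and Hist3h2ba at 0.06.

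Hist2h2be was the only gene of the 60 called lower. In mice this gene is known for an H2B variant of olfactory sensory neurons that is made outside DNA replication. It had 67.1 and 64.1 normalised counts in the dopamine libraries, against 102 and 95.0 in the PBS libraries, with both dopamine libraries below both PBS libraries (log2 fold change -0.58, SE 0.19, adjusted p = 0.0206). It shares 0% of its 50-base stretches with other genes, its annotated transcript of 2620 bases holds no stem-loop, and AATAAA or ATTAAA stands in the last 40 bases of it. The call was lost with DESeq2 and when any 1 of the 4 libraries was left out. Its start lies 239 bases from that of Hist2h2ac on chr3, and the pair is read in opposite directions. The ratio of Hist2h2ac to Hist2h2be was 2.61 and 2.18 in the dopamine libraries, against 0.683 and 0.548 in the PBS libraries. The 2 groups could not overlap in it, because Hist2h2ac was higher and Hist2h2be lower in both dopamine libraries than in both PBS libraries.

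H3 genes encode the core histone whose tail carries most of the well-known histone marks. Of the 10, 8 were called higher and 0 lower. Hist1h3e, with the highest mean count of the class, had 1844 and 1986 normalised counts in the dopamine libraries, against 1219.7 and 1254 in the PBS libraries (log2 fold change 0.63, SE 0.08, adjusted p = 1.01e-08). Hist1h3b had 1408 and 1349 normalised counts in the dopamine libraries, against 1123 and 1081 in the PBS libraries (log2 fold change 0.32, SE 0.08, adjusted p = 0.00195). Hist1h3a had 1249 and 1292 normalised counts in the dopamine libraries, against 1033 and 978 in the PBS libraries (log2 fold change 0.34, SE 0.08, adjusted p = 0.00149). No dopamine library of the 3 was as low as a PBS library. Hist1h3c had 841 and 888 normalised counts in the dopamine libraries, against 423 and 524 in the PBS libraries, the largest change of the class (log2 fold change 0.88, SE 0.10, adjusted p = 1.82e-09). Hist1h3f had 1257 and 1334 normalised counts in the dopamine libraries, against 800.1 and 809.8 in the PBS libraries (log2 fold change 0.69, SE 0.08, adjusted p = 1.04e-08). Hist1h3i and Hist1h3h were called at 0.51 and 0.79, and Hist1h3g at 0.24 with an adjusted p of 0.041. The call of Hist1h3g failed in 11 of 15 other analyses. Hist1h3d (0.24, adjusted p = 0.127) and Hist2h3c2 (0.36, adjusted p = 0.379, 20 to 55 reads a library) did not pass. The calls of Hist1h3a, Hist1h3b and Hist1h3g were lost after rescaling, which left 5 H3 genes called.

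All 13 H4 genes were called higher, and no dopamine library of any of them was as low as a PBS library. Nearly all H4 genes make the same protein, the partner of H3 in the centre of the nucleosome. Hist1h4d (chr13:23581598-23582735, plus strand) had 4554 and 4489.8 normalised counts in the dopamine libraries, against 2976 and 3119 in the PBS libraries. Hist1h4f (chr13:23551258-23551648, minus strand) had 3004 and 3441 normalised counts in the dopamine libraries, against 2117 and 2166 in the PBS libraries. Hist1h4h (chr13:23531050-23531519, plus strand) had 2511 and 2496 normalised counts in the dopamine libraries, against 1921 and 1784 in the PBS libraries. These 3 had the highest mean counts among H4 genes, and each group's libraries lay close together. The fit gave log2 fold change 0.57, SE 0.06, adjusted p = 1.52e-09 for Hist1h4d, log2 fold change 0.59, SE 0.07, adjusted p = 9.40e-09 for Hist1h4f and log2 fold change 0.44, SE 0.07, adjusted p = 5.26e-06 for Hist1h4h. Hist1h4c had 2193 and 2473 normalised counts in the dopamine libraries, against 1466 and 1434 in the PBS libraries (log2 fold change 0.68, SE 0.07, adjusted p = 8.16e-10). Hist1h4k was called at 0.64, Hist1h4m at 0.66 and Hist1h4n at 0.55. The call of Hist1h4n was lost with DESeq2 and after rescaling, and that of Hist1h4i was lost in both as well. The rescaled fit called 11 of the 13 H4 genes higher.

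The largest H4 changes were in Hist1h4b, Hist1h4a, Hist1h4j and Hist4h4. Hist1h4b had 122 and 116 normalised counts in the dopamine libraries, against 56.1 and 44.4 in the PBS libraries (log2 fold change 1.23, SE 0.19, adjusted p = 2.34e-06). Hist1h4a had 846 and 825 normalised counts in the dopamine libraries, against 418 and 470.4 in the PBS libraries (log2 fold change 0.91, SE 0.10, adjusted p = 2.71e-10). Hist1h4j had 495 and 487 normalised counts in the dopamine libraries, against 251 and 273 in the PBS libraries (log2 fold change 0.91, SE 0.11, adjusted p = 1.12e-08). In all 3 the groups were far apart relative to the spread within them. Hist4h4, which stands outside the other clusters (chr6:136801553-136804415, minus strand), had 959 and 884 normalised counts in the dopamine libraries, against 494 and 496 in the PBS libraries (log2 fold change 0.89, SE 0.09, adjusted p = 1.78e-10). Hist2h4 (chr3:96261682-96263311, minus strand) had 1559 and 1543 normalised counts in the dopamine libraries, against 1021 and 1034 in the PBS libraries (log2 fold change 0.59, SE 0.08, adjusted p = 7.48e-08). Both hold little shared sequence, with 7.07% of the 50-base stretches of Hist4h4 and 1.01% of those of Hist2h4 found in other genes. Hist1h4i had 174 and 209 normalised counts in the dopamine libraries, against 116 and 169 in the PBS libraries, the least certain H4 call (log2 fold change 0.45, SE 0.16, adjusted p = 0.0339), which failed in 10 of 15 other analyses.

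**Figure D3:**
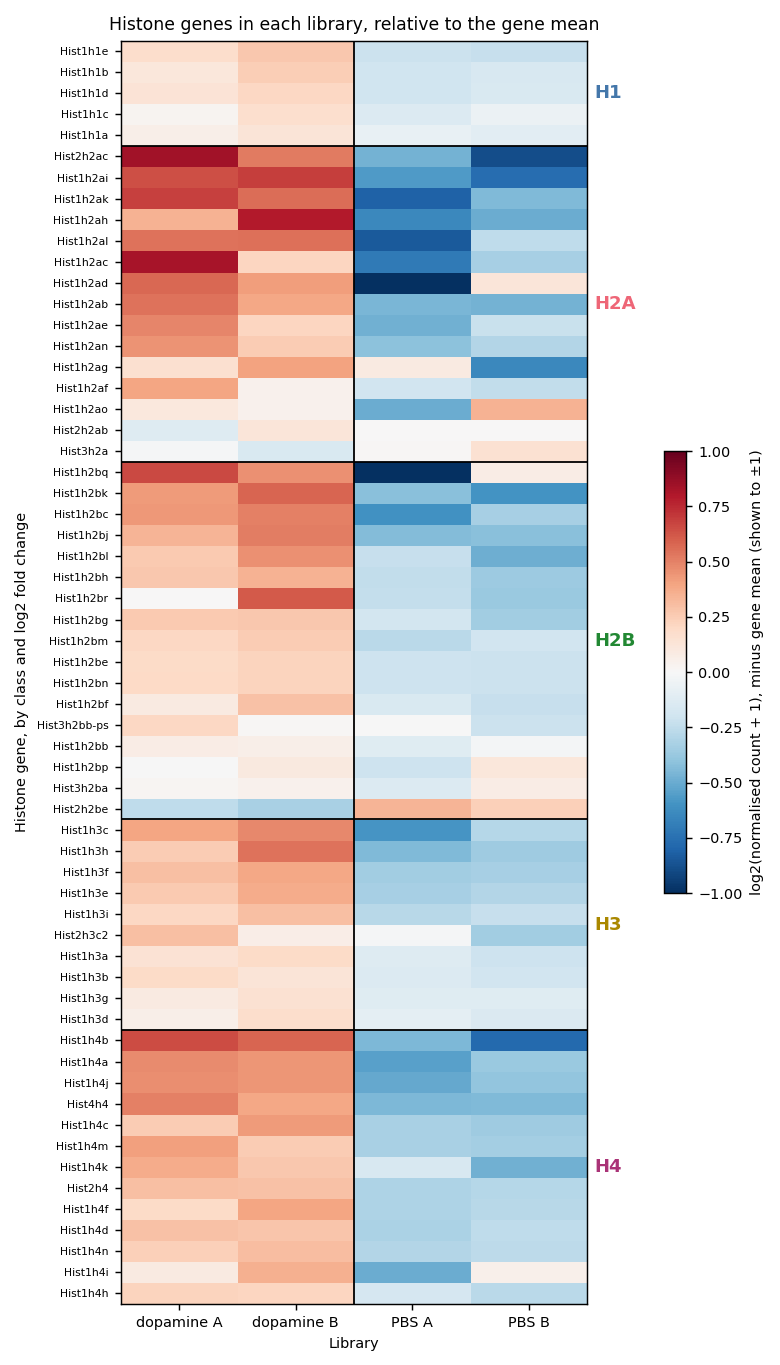
Each row is a histone gene, grouped by class and ordered by log2 fold change, and each column a library; colour gives log2(normalised count + 1) minus the gene's mean over the 4 libraries. The dopamine columns are red and the PBS columns blue in nearly all rows, Hist2h2be is the reverse, and low genes such as Hist1h2ad and Hist1h2ao differ between libraries of a group.

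**Figure D4:**
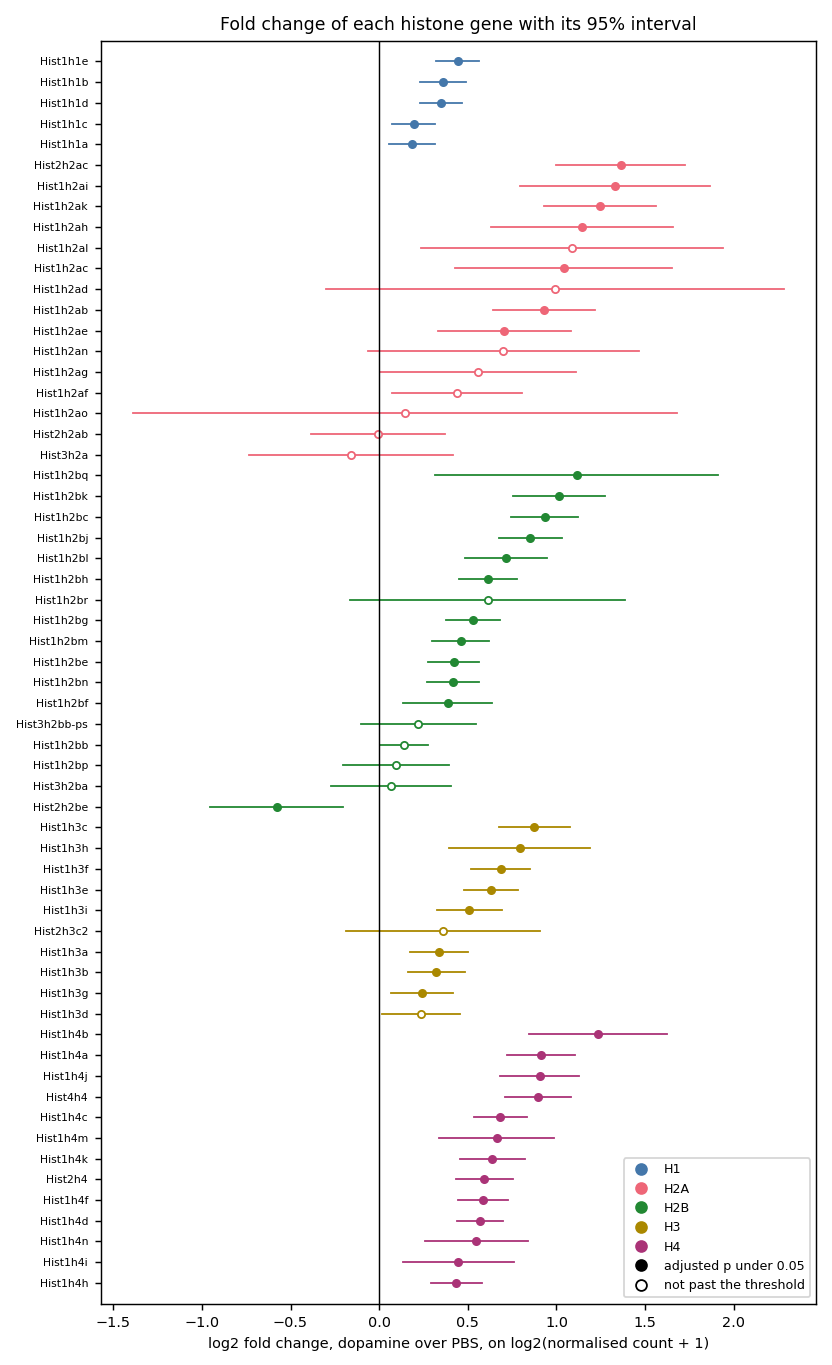
The log2 fold change of dopamine over PBS (x axis) of each histone gene is drawn with its 95% interval, coloured by class, with filled points for an adjusted p under 0.05. H4 intervals all lie above 0, from 0.44 (Hist1h4h) to 1.23 (Hist1h4b) at their centres, and the H1 genes sit between 0.18 and 0.44.

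Compared per kilobase of exon, the classes differed in counted level as well. The median share of 50-base stretches found in other genes ran from 2.25% for H1 to 67.1% for H2A. How reads with several matches and reads of either strand were counted is unstated. The part of this in the class levels and class shares below was not tested. Hist1h4f was the highest of all, at 8242 per kilobase in dopamine and 5476 in PBS (normalised counts per kilobase, mean of 2 libraries). Hist1h2bb had 6007 per kilobase in dopamine and 5465 in PBS, and Hist1h1b had 5669 per kilobase in dopamine and 4411 in PBS. The median over a class was 4533 per kilobase in dopamine and 3954 in PBS for H1, 1524 and 1084 for H3, 952 and 630.2 for H4, 681 and 459 for H2B, and 146 and 64.0 for H2A. Lengths are all annotated exon bases of a gene, which are long for some members such as Hist1h1d (7425 bases), so their levels per kilobase are lowered. The balance of the classes also differed between groups: H4 counts were 0.636 and 0.608 times H1 counts in the dopamine libraries, against 0.510 and 0.499 in the PBS libraries. H1 took 39.2% and 40.2% of all histone counts in the dopamine libraries, against 43.3% and 43.7% in the PBS libraries. H2B took 21.9% and 21.6% in the dopamine libraries and 21.7% and 21.5% in the PBS libraries, with overlap.

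Genes called higher were found in both blocks of the large cluster on chr13, among the Hist2 genes on chr3 and in Hist4h4 on chr6. Hist4h4 was the only Hist4 gene. Of all genes 14.3% were called higher and 7.0% lower, and of those with a mean of at least 100, 39.1% and 7.9%. In the block at chr13:21715763-22043676, 17 of 22 genes were called higher and the log2 fold change had a median of 0.65. In the block at chr13:23531050-23764406, 24 of 28 were, with a median of 0.55. The last of the 51 Hist1 genes, Hist1h2al, lies apart at chr13:51202727-51203065. Of the 5 Hist2 genes on chr3, 2 were called higher and 1 lower. None of the 3 Hist3 genes on chr11 (Hist3h2a, Hist3h2ba and Hist3h2bb-ps) passed, with log2 fold changes of -0.16 to 0.22; they were named because they make up the cluster.

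H2A and H2B genes often lie head to head, and 11 such pairs were among the 60 genes, with 173 to 302 bases between their starts. Both genes were called higher in 5 pairs: Hist1h2bl with Hist1h2ai, Hist1h2ak with Hist1h2bn, Hist1h2ah with Hist1h2bk, Hist1h2ae with Hist1h2bg, and Hist1h2ac with Hist1h2bc. In 1 pair, Hist2h2ac with Hist2h2be, the partners were called in opposite directions. In 3 pairs 1 partner was called higher and the other, always an H2A gene, did not pass. These H2A genes were Hist1h2ao, Hist1h2ad and Hist1h2ag, at low mean counts of 2.88, 5.39 and 37.9. That they did not pass does not show that the partners differed. In the last 2 pairs neither did.

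The upstream sequence of 53 of the 60 genes could be matched in RefSeq (GRCm38.p6, 250 bases before the start to 50 after it). Searched on both strands, CCAAT stood in all 41 windows of H1, H2A, H2B and H3 genes and in 3 of 12 H4 windows, against 37.4% of 32851 windows of all genes. TATAAA stood in 32 of the 53, against 13.6% of all windows. The octamer ATGCAAAT, known from H2B promoters, stood in 6 of 14 H2A and 5 of 14 H2B windows and in none of the others, against 1.74% of all windows. AAACACA, an element described in H1 promoters, stood in 4 of 5 H1 windows, against 7.18% of all. The site II element of H4 promoters, a longer motif with an open base, stood in 2 of 12 H4 windows, those of Hist1h4h and Hist4h4, and in 3 windows of all. No letters of these motifs overlap in the windows printed here. A match is a description of the letters and not a site. The 250 bases upstream of Hist1h2bk and Hist4h4 are given because these genes rose in their classes and hold the class motif, 5′ to 3′ on the gene's strand, with motif letters in capitals: the octamer, CCAAT and TATAAA on either strand in Hist1h2bk (chr13:22035571-22035820, plus strand), and the H4 element in Hist4h4 (chr6:136804432-136804681, minus strand).
Hist1h2bk: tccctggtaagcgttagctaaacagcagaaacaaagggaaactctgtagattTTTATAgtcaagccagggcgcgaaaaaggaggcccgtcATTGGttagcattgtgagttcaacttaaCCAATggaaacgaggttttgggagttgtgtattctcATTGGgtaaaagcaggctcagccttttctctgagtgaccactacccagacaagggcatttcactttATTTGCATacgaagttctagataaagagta
Hist4h4: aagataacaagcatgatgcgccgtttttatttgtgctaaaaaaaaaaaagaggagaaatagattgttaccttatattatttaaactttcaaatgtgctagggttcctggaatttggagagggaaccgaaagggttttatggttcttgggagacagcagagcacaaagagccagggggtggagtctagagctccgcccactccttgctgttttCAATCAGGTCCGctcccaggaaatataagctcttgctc
The octamer of Hist1h2bk begins 30 bases before the RefSeq start and the element of Hist4h4 38 bases before it. For both genes this start lies upstream of the GENCODE start, which the gene coordinates and the pair distances above use. Among H2A and H2B genes, 9 of the 11 with the octamer were called higher, with a median log2 fold change of 0.71, and 8 of the 17 without it, with a median of 0.61. The median of the mean counts was 175 with the octamer and 90.9 without it.

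Genes called higher were found with every stem-loop form, and among genes with none in their annotated transcript. With the stem-loop of Hist1h1c, 14 of 22 genes were called higher (median log2 fold change 0.40). With that of Hist1h2bb, 4 of 5 were (0.69). All 11 H4 genes in which a stem-loop was found were called, whichever of the 3 forms they carry. Of the 21 genes with none in their annotated transcript, 14 were called higher and 1 lower (0.64). Some of these transcripts are short, such as those of Hist1h4k (312 bases) and Hist1h2bn (381 bases). The 21 are therefore not known to lack a stem-loop. AATAAA or ATTAAA, the signals of ordinary poly(A) messages, stood in the last 40 bases of the annotated transcript of 14 genes, of which 9 were called higher and 1 lower (0.44), and 35 of the 46 without either were called higher (0.60). These are descriptions of overlapping sets and were not tested.

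Near-identical copies limit what a single histone gene's count means. Divided into 50-base stretches, the transcripts of the 60 genes shared a median of 48.2% of them with other genes, from 0% (Hist1h1a, Hist1h1b and Hist2h2be) to 97.3% (Hist1h2bq). By class the median was 2.25% for H1, 39.5% for H4, 44.1% for H2B, 57.2% for H3 and 67.1% for H2A. Of the 16 genes with under 25% shared, 12 were called higher and 1 lower, with a median log2 fold change of 0.39. Of the 44 genes with 25% or more, 32 were called higher, with a median of 0.62. The handling of reads with several matches is unstated. Values of genes with much shared sequence are uncertain one by one, and so are comparisons of level between classes. Across the 60 genes, log2 fold change and mean count had a Spearman rho of -0.27, and fold change and shared percentage one of 0.33; the genes share libraries and clusters and are not independent.

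Of the 20 genes in the table that process or control histone messages, 9 were called higher and 1 lower, against 39.1% and 7.9% of all genes with a mean of at least 100, a level that all but Mblac1 reached. After rescaling 2 were called higher and 2 lower, against 18.4% and 19.0% of the genes at that level. The list had a median log2 fold change of 0.22, close to the 0.20 of those genes. In 16 of the 20 both dopamine libraries stood above both PBS libraries, and in 2 below, against 60.8% and 15.4% of those genes. Slbp, which binds the stem-loop, had 2009 and 1871 normalised counts in the dopamine libraries, against 1768 and 1958 in the PBS libraries. Npat, which switches on histone transcription in S phase, had 1844 and 1834 normalised counts in the dopamine libraries, against 1724 and 1690.2 in the PBS libraries. Slbp overlapped between groups and Npat did not, but neither passed (log2 fold change 0.06, SE 0.07, adjusted p = 0.622 for Slbp and log2 fold change 0.11, SE 0.07, adjusted p = 0.32 for Npat), and both log2 fold changes were below 0 after rescaling, at -0.14 and -0.09. Zfp473, the mouse form of ZFP100 that joins U7 to the stem-loop complex, had 74.8 and 82.5 normalised counts in the dopamine libraries, against 156 and 150.2 in the PBS libraries. It was called lower (log2 fold change -0.95, SE 0.17, adjusted p = 1.45e-05), with both dopamine libraries below both PBS libraries. Lsm10, a ring protein of the U7 particle, had 146 and 146 normalised counts in the dopamine libraries, against 112 and 90.4 in the PBS libraries (log2 fold change 0.53, SE 0.16, adjusted p = 0.0139). Cpsf3, the enzyme that cuts the message, had 1703 and 1709 normalised counts in the dopamine libraries, against 1337 and 1479 in the PBS libraries (log2 fold change 0.28, SE 0.08, adjusted p = 0.00583). Its partners Cpsf2 and Sympk were called higher at 0.42 and 0.34, as were Cstf2 at 0.34 and the cap and decay factors Ncbp2 at 0.39, Srrt at 0.21, Dxo at 0.57 and Upf1 at 0.37.

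The list of histone chaperones holds genes whose products bind, carry or deposit histones, not only at the replication fork. Of 14, 8 were called higher and 1 lower, against 39.1% and 7.9% of all genes with a mean of at least 100. Their median log2 fold change was 0.26, against 0.20 for those genes. In 10 of the 14 both dopamine libraries stood above both PBS libraries, and in 1 below, against 60.8% and 15.4% of those genes. Ipo4, which brings H3 and H4 into the nucleus, had 376 and 407 normalised counts in the dopamine libraries, against 195 and 259 in the PBS libraries (log2 fold change 0.80, SE 0.12, adjusted p = 2.26e-06). Nap1l1, a carrier of H2A and H2B, had 2287 and 2149 normalised counts in the dopamine libraries, against 1424 and 1611 in the PBS libraries (log2 fold change 0.55, SE 0.08, adjusted p = 1.70e-07). Nasp, which holds the soluble H3 and H4 pool, had 3093 and 2910.0 normalised counts in the dopamine libraries, against 2416 and 2439 in the PBS libraries (log2 fold change 0.31, SE 0.07, adjusted p = 5.74e-04). In all 3 the dopamine libraries stood above the PBS libraries. Ssrp1 and Supt16, the FACT subunits, were called at 0.34 and 0.26, Hat1 at 0.35, Asf1a at 0.34 and Chaf1a at 0.26. Asf1b had 626 and 715 normalised counts in the dopamine libraries, against 747 and 904 in the PBS libraries and was called lower (log2 fold change -0.30, SE 0.10, adjusted p = 0.0211). After rescaling 2 of the 14 were called higher and 3 lower, against 18.4% and 19.0% of all genes with a mean of at least 100.

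Replication-independent variants, most of which have ordinary poly(A) messages, give a comparison within the histone family; H2afx is known to make both a stem-loop message and one with a tail. Of 11, 4 were called higher and 1 lower, with a median log2 fold change of 0.13. Of all genes with a mean of at least 100, a level that H1fx and H2afy2 did not reach, 39.1% were called higher and 7.9% lower. After rescaling 1 variant was called higher and 2 lower, against 18.4% and 19.0% of those genes. In 5 of the 11 both dopamine libraries stood above both PBS libraries, and in 2 below, against 60.8% and 15.4% of those genes. H3f3b, which makes the variant H3.3, had 8849 and 8767 normalised counts in the dopamine libraries, against 6844 and 7108 in the PBS libraries (log2 fold change 0.34, SE 0.06, adjusted p = 9.25e-06), and H3f3a, which makes the same protein, had 2013 and 2325 normalised counts in the dopamine libraries, against 2186 and 2271 in the PBS libraries (log2 fold change -0.04, SE 0.07, adjusted p = 0.731). Of the 2, H3f3b alone was clear of overlap. H2afz was called at 0.24, H2afy at 0.24 and H2afx at 0.32, while H2afv was lower (log2 fold change -0.39, SE 0.09, adjusted p = 6.98e-04) and H1f0 did not pass at 0.20. The histone sum was 8.13 and 8.58 times the count of H3f3b in the dopamine libraries, against 7.87 and 7.67 times in the PBS libraries.

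The list of DNA replication genes, which are also made around S phase, had 12 of 36 called higher and 0 lower by limma. Among all genes with a mean of at least 100, 39.1% were called higher and 7.9% lower. After rescaling 3 of the 36 were called higher and 4 lower, against 18.4% and 19.0% of those genes. The list had a median log2 fold change of 0.20, beside 0.20 for those genes. In 30 of the 36 both dopamine libraries stood above both PBS libraries, and in 1 below, against 60.8% and 15.4% of those genes. Pold1, a subunit of the replicative polymerase, was called at 0.42, the clamp loader subunit Rfc4 at 0.49, the G1/S cyclin Ccne1 at 0.43 and the helicase subunit Mcm2 at 0.23. Pcna, the sliding clamp, had 6965 and 7150.3 normalised counts in the dopamine libraries, against 7019 and 7104 in the PBS libraries, with overlapping groups and log2 fold change -0.00, SE 0.06, adjusted p = 0.994. Of 20 mitosis genes, 3 were called higher and 3 lower, against the same 39.1% and 7.9%, with a median of -0.02. After rescaling 1 of them was called higher and 12 lower, against 18.4% and 19.0%. In 5 of the 20 mitosis genes both dopamine libraries stood above both PBS libraries, and in 10 below. Mki67, which marks cycling cells, had 11467 and 11737 normalised counts in the dopamine libraries, against 15404 and 14330.3 in the PBS libraries and was called lower (log2 fold change -0.36, SE 0.05, adjusted p = 1.23e-06), as was Top2a at -0.18, while Ccnb1 was higher at 0.32. Set against these lists inside each library, the histone sum was 1.0299 and 1.0281 times the DNA replication sum in the dopamine libraries, against 0.849 and 0.835 times in the PBS libraries. It was 1.13 and 1.16 times the mitosis sum in the dopamine libraries, against 0.759 and 0.779 times in the PBS libraries. Neither ratio overlapped between groups.

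**Figure D5:**
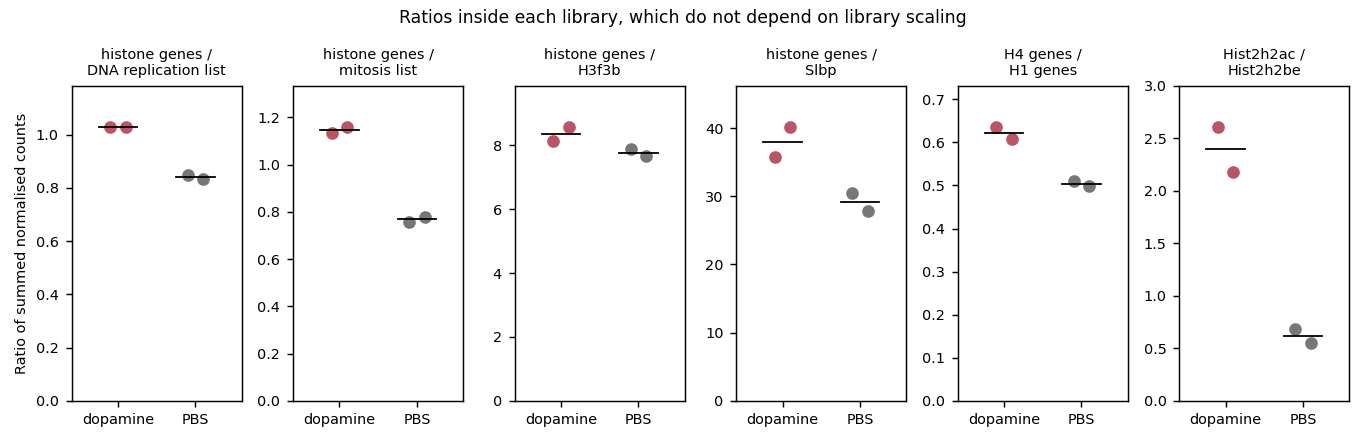
Each panel gives a ratio of summed normalised counts inside each library (points) with the mean of the group (line), dopamine left and PBS right, on an axis from 0. The dopamine points lie above the PBS points in every panel, most narrowly for H3f3b (8.13 and 8.58 against 7.87 and 7.67). They lie most widely apart for Hist2h2ac over Hist2h2be (2.61 and 2.18 against 0.683 and 0.548), whose partners were called in opposite directions.

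Other RNAs that lack or mostly lack a poly(A) tail were looked at because the kit selects for one. Of 71 such RNAs, most of them small nucleolar and related RNAs at low counts, 12 were called higher and 1 lower (9 and 1 after rescaling), against 14.3% and 7.0% of all genes. Their median log2 fold change was 0.63 (0.47 after rescaling), against 0.58 for the 60 histone genes (0.38 after rescaling). Both dopamine libraries stood above both PBS libraries in 41 of the 71 and below them in 2, against 28.5% and 30.4% of all genes. Rmrp, the RNA of an RNase complex, had 1751 and 2067 normalised counts in the dopamine libraries, against 508 and 496 in the PBS libraries (log2 fold change 1.92, SE 0.09, adjusted p = 4.16e-22). Rpph1, the RNA of RNase P, had 40275 and 48223 normalised counts in the dopamine libraries, against 21263 and 22901 in the PBS libraries (log2 fold change 1.00, SE 0.06, adjusted p = 8.67e-19). Snora57 was called at 1.58. All of these were far clear of the PBS libraries. Rn7sk, which took most of the list's counts, had 212593 and 205877 normalised counts in the dopamine libraries, against 231132 and 239911 in the PBS libraries and was called lower (log2 fold change -0.17, SE 0.04, adjusted p = 0.00155). Summed, the 71 RNAs came to 259582 and 261531 normalised counts in the dopamine libraries, against 256688 and 267027 in the PBS libraries, which overlap. Without Rn7sk the other 70 came to 46990 and 55654 normalised counts in the dopamine libraries, against 25555 and 27117 in the PBS libraries, with no overlap. Whether the amount of RNA without a tail that passed the selection differed between libraries, and its part in the histone counts, was not tested.

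Markers of other cells also differed between the groups. The helper T cell list was high in all libraries, at a summed 26142 and 26838 normalised counts in the dopamine libraries and 23669.7 and 25118 in the PBS libraries, with no overlap. Of its 7 genes, Trbc2, Cd3g and Cd3d were called higher at 0.24, 0.24 and 0.25 and Trac lower at -0.27 (0 higher and 1 lower after rescaling), and Cd4 did not pass (log2 fold change 0.13, SE 0.06, adjusted p = 0.122). All 6 basophil and mast cell markers were called lower, with sums of 673 and 595 in the dopamine libraries, against 2354 and 2009 in the PBS libraries. All 4 platelet markers were lower, with sums of 434 and 385 in the dopamine libraries, against 1493 and 1307 in the PBS libraries. Of the 4 measured red cell genes 3 were called lower, and all 4 had both dopamine libraries below both PBS libraries. Their sums were 74.8 and 51.5 in the dopamine libraries, against 377 and 278 in the PBS libraries. Of 5 myeloid markers, 3 were called lower, and 4 had both dopamine libraries below both PBS libraries. Their sums were 39.3 and 53.4 in the dopamine libraries, against 126 and 134 in the PBS libraries. B cell markers went the other way: 4 of 6 were called higher, with sums of 387 and 379 in the dopamine libraries, against 173 and 145 in the PBS libraries. Of the 2 CD8 T cell markers Cd8a was called higher, with list sums of 209 and 206 in the dopamine libraries, against 107 and 95.0 in the PBS libraries. Of the 3 NK cell markers Eomes was called higher at a log2 fold change of 1.08, while Klrb1c (-1.16) and Ncr1 (-0.49), at low counts, did not pass. Eomes made up most of the list's sums of 304 and 288 in the dopamine libraries, against 163 and 143 in the PBS libraries. S100a8 and S100a9 were at 0 in dopamine B, and no other marker was at 0 in any library. The part of these other cells in the histone counts was not tested.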

How the data were processed

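Per the labels' protocols, the TruSeq Stranded mRNA kit turned total RNA into libraries. Per the submitters' processing notes, the tools were TopHat2 2.0.13, HTSeq 0.6, FastQC 0.11.2, R 3.6.2 and DESeq2, and the build was mm10. The annotation, the strand setting and the handling of reads with several matches are stated nowhere in the labels. The deposited table holds the authors' DESeq2 comparison: deposited log2 fold changes with errors, the deposited Wald score, and deposited p-values with and without adjustment. The 4 columns of values per library are normalised read counts (a signal, read counts over the library's size factor, per the file headers). Each value was a whole multiple of 1 read (100% at a tolerance of 0.01), which gave back the reads: 14167357 and 11492182 for dopamine A and B, and 5717408 and 13241168 for PBS A and B. A read was worth 0.771, 0.971, 1.70 and 0.766 normalised counts in dopamine A, dopamine B, PBS A and PBS B, so low values rest on a few reads. No gene had fewer than 8 reads in total, and 26 IDs had been turned into dates. Columns could be matched to groups only.

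The histone genes and the gene lists were chosen with earlier results of these data known. The lists were written from textbook knowledge. Because the values are normalised, limma 3.58.1 (R 4.3.3) was the main test, 2-sided and unfiltered, on log2(value + 1) with a trend of spread on level, and with Benjamini-Hochberg adjustment at 0.05. It borrows spread across genes (prior degrees of freedom 42.4), which sets its power with 2 libraries a group. A fold change on this scale understates changes of low genes. Alternatives were edgeR 4.0.16 (quasi-likelihood, 4 settings) and DESeq2 1.42.0 on recovered reads, other limma settings, each library left out, and a block by the column names' numbers. The fits were tested on simulated data. Named were all members past the threshold, the 3 with the highest mean of each class, called processing and chaperone genes, a few set genes and up to 3 of each other list by p. Members that did not pass were named after their values were seen, to account for all 60. Stem-loops, lengths and shared stretches came from GENCODE M21, and promoter windows from RefSeq; the site II element was searched with 1 open base.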

Additional observations from a re-analysis of the deposited data

How the results depend on the processing

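Of the 44 histone genes called higher, 30 (3 H1, 4 H2A, 9 H2B, 4 H3 and 10 H4 genes) kept the call in every alternative that tested them but limma without the trend; Hist1h2ai, 1 of these, was not tested with a minimum of 5 CPM. Counts called higher were 39 with edgeR (TMM), 43 with DESeq2 size factors, 36 with upper-quartile scaling, 41 without a filter, 36 with DESeq2, 41 with a pseudocount of 0.1, 40 with a minimum of 5 CPM (48 genes tested), 43 after TMM scaling in limma and 35 after rescaling. limma without the trend called 0 histone genes in either direction, 0 genes of the related lists and 0 of all 26207 genes. At an unadjusted p under 0.05 it had 36 histone genes higher and 1 lower, 21 list genes and 5551 genes in all. Leaving out a library gave 35 to 40 histone genes higher and 0 lower. DESeq2 also called 0 lower, against 1 in the main analysis, with 0 lower at an unadjusted p under 0.05. All genes called were 5577 in the main analysis, 3261 with DESeq2 and 2914 to 4299 with a library left out, lowest without PBS A and 3276 without dopamine B. List genes called were 55 in the main analysis and 28 to 48 with a library left out, with 28 without PBS A and 34 without dopamine B. The summed ratio was 1.38 without the gene of highest mean and 1.36 without the named pseudogene.

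Of all calls 67.1% were higher in the main analysis, 35.8% after rescaling, 39.0% with upper-quartile scaling and 53.5% with edgeR (TMM). After rescaling 5 histone genes turned below 0, and 4 with upper-quartile scaling. Log2 fold changes that turned sign were Hist1h1a -0.0041 with upper-quartile scaling and -0.014 after rescaling, Hist1h1c -0.0023 after rescaling, Hist1h2bb -0.054 and -0.061 with these scalings, Hist1h2bp -0.14 and -0.10, Hist3h2ba -0.15 and -0.13, Npat -0.078 and -0.091, and Slbp -0.13 and -0.14. With edgeR (TMM) Slbp was at -0.050, Hist1h2bp at -0.053 and Hist3h2ba at -0.066, and Hist1h2ao was at -0.053 with edgeR without a filter. Without PBS A, Hist1h2ao was at -0.27, Hist1h2bp at -0.062 and Hist3h2ba at -0.039, and Hist2h2ab was at 0.12 without dopamine A. Hist1h2bp, Hist3h2ba, Hist1h2ao and Hist2h2ab were not called in the main analysis. With a library left out, Slbp ranged between -0.014 (without PBS A) and 0.13 (without PBS B), H3f3a between -0.15 (without dopamine B) and 0.061 (without dopamine A), and Pcna between -0.020 (without dopamine B) and 0.018 (without dopamine A), with 0.0078 without PBS B. The cause was not tested, apart from rescaling, which by construction lowers log2 fold changes by about 0.20 for well-expressed genes and by less for low ones.

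The column numbers do not establish pairs: with 2 pairs, the deviations of like-numbered libraries correlated at 0.125 over 11611 genes. With the number as a replicate block, 47 histone genes were called higher and 1 lower, 79 list genes and 6999 genes in all. Of the 12 histone genes with a mean under 50 normalised counts, which rest on few reads, 4 were called; that the other 8 did not pass does not show that their groups were alike.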
